A study of Mus musculus with 6 samples.

Results

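The clustered protocadherins are cell-surface adhesion proteins of the cadherin superfamily, and their genes were read here in P19 cells, a mouse embryonal carcinoma line, with and without the peptide PDTLN1. The genes were chosen by symbol, as the rows named Pcdha, Pcdhb or Pcdhg followed by a digit, a, b or c. That gave 58 of the 34745 rows of the table: 14 in the alpha cluster, 22 in the beta cluster and 22 in the gamma cluster. RNA sequencing covered 3 libraries of P19 cells given PDTLN1 and 3 libraries of P19 cells with no treatment. The labels give no dose, no duration and no genotype difference between the groups, and the treated samples carry a title code, P50, that is not explained. The extraction text shared by all samples speaks of retinas, whereas every sample is labelled as the P19 line.

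P19 cells grow as undifferentiated, pluripotent cells and can be driven towards neural or cardiac fates. In the alpha and gamma clusters, each gene has its own large first exon with its own promoter, and that exon is spliced to constant exons shared by the whole cluster, while beta genes are largely single-exon genes. Neurons switch on a random subset of these promoters through DNA looping by CTCF and cohesin, at promoters that DNA methylation otherwise keeps silent, whereas the C-type genes at the ends of the alpha and gamma clusters are less randomly used. The proteins bind copies of themselves on neighbouring membranes, and this match is how neurites of one neuron recognise and avoid each other.

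Gene counts summed to 10381307, 11515237 and 11663081 in PDTLN1 libraries 1, 2 and 3, and to 10450134, 10692451 and 11177756 in control libraries 1, 2 and 3. Levels are given in CPM, a gene's count scaled to a library total of 1000000 after TMM normalization of the totals. Along the first principal component of log2 CPM, which held 35.0% of the variance, the libraries did not divide by treatment. PDTLN1 library 1 (18.3) lay with control libraries 2 and 3 (14.2 and 19.8), and control library 1 (-17.0) lay with PDTLN1 libraries 2 and 3 (-23.5 and -11.7). Summed markers of pluripotent cells were 3399 to 3582 CPM in PDTLN1 libraries and 3559 to 3719 CPM in control libraries. Their part in the results was not tested. Pou5f1, a core pluripotency factor, averaged 1353 ± 83.4 CPM in PDTLN1 libraries and 1465 ± 32.6 CPM in control libraries (SD, n = 3 each). Of the 12 pluripotent markers 10 were tested, with 3 above 0 and 7 below 0, against 49.7% of all tested genes above 0. The groups did not overlap for 3, against 9.79% of all tested genes. An unadjusted p under 0.05 with edgeR was found for 1, against 3.99%, and 0 were called, against 0.0217%. That was Utf1, named after its value was seen, at 57.1 ± 6.09 CPM after PDTLN1 and 74.4 ± 2.38 CPM in controls. Zfp42 and Dppa5a had at most 5 and 4 counts in any library. The 18 neural markers, of which 8 of the 15 tested lay above 0 with a median log2 fold change of 0.025, summed to 527 to 597 CPM after PDTLN1 and 509 to 547 CPM in controls. None of them was at 0. Nes, a neural progenitor filament gene, was the largest part of that sum, with 317 ± 51.3 CPM in PDTLN1 libraries and 267 ± 30.8 CPM in control libraries, and the neuronal tubulin gene Tubb3 averaged 49.0 ± 15.1 CPM in PDTLN1 libraries and 60.9 ± 10.4 CPM in control libraries. Retinal markers summed to 6.87 to 9.73 CPM after PDTLN1 and 7.01 to 9.47 CPM in controls, and the photoreceptor genes Crx, Arr3 and Opn1sw had no counts in any library. Most of that sum was Rom1, at 5.29 ± 1.45 CPM in PDTLN1 libraries and 5.43 ± 0.980 CPM in control libraries. Abca4 followed at 1.78 ± 0.122 and 1.85 ± 0.494 CPM, in the same order.

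The positions in the table place all 58 genes on chromosome 18. Each position was the same as in GENCODE release M21 of the mouse build GRCm38, which puts all 58 on the plus strand. The alpha cluster ran from 36930184 to 37187661, the beta cluster from 37264938 to 37524479 and the gamma cluster from 37661793 to 37841873. Every alpha gene overlapped the other 13, and every gamma gene overlapped the other 21, because their spans all reach the shared constant exons. Among the beta genes only Pcdhb21 and Pcdhb22 overlapped, by 455 exonic bases. Of the merged exon length of a gene, 38.0% to 54.9% (median 53.4%) was shared with other cluster genes in alpha and 27.8% to 66.8% (median 44.7%) in gamma. In beta the share was 0% to 9.67% (median 0%).

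Sequence identity gave the same order. The share of a gene's 50-base stretches of transcript that also occurred in another clustered protocadherin was 43.8% to 63.9% in alpha, 26.9% to 65.3% in gamma and 0% to 11.99% in beta. How the counting treated reads in shared exons, reads with several matches and strand is not given in the sources used here. A count of an alpha or gamma gene is therefore uncertain, since reads from the constant exons may have been split, dropped or given to 1 gene, and the beta genes carry less of this uncertainty. Symbols needed care as well. The table names 2 rows Pcdha11 and 2 rows Pcdhga8. By position, ENSMUSG00000007440 lies at RefSeq's Pcdha10 and ENSMUSG00000023036 at Pcdhgc4, and they are called so here. Pcdhgb8 is annotated as a polymorphic pseudogene.

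Of 24 other rows inside the locus, 19 overlapped a clustered protocadherin. Among those 19, 7 had no count in any library and the highest had 33 counts over all 6 libraries. The predicted genes Gm37013, Gm37388 and Gm42416, whose spans each overlap those of all 58 genes, beta genes included, were at 0 counts. Whether the overlap with these rows removed reads from the genes described here was not tested.

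All 3 clusters were read in all 6 libraries at similar summed levels after PDTLN1 and in controls. A cluster's level is the sum over its genes. The alpha cluster had 37.2, 26.6 and 33.7 CPM in PDTLN1 libraries 1, 2 and 3, against 31.0, 35.2 and 26.3 CPM in control libraries 1, 2 and 3. The beta cluster had 88.7, 82.3 and 84.2 CPM in PDTLN1 libraries, against 72.8, 85.9 and 84.7 CPM in control libraries. The gamma cluster had 87.7, 126 and 129 CPM in PDTLN1 libraries, against 123, 126 and 122 CPM in control libraries. The groups overlapped in each cluster. PDTLN1 library 1 was the lowest of all 6 for gamma and the highest of all 6 for alpha and beta.

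Group means of the summed levels were 32.5 ± 5.38 CPM after PDTLN1 and 30.8 ± 4.41 CPM in controls for alpha (SD, n = 3 each). They were 85.1 ± 3.31 and 81.1 ± 7.26 CPM for beta, and 114 ± 23.0 and 123 ± 2.15 CPM for gamma, in PDTLN1 and control libraries. The log2 ratios of these means were 0.07, 0.07 and -0.11, with overlapping groups in each cluster. The gamma ratio turned to 0.05 without PDTLN1 library 1, and both remaining PDTLN1 libraries then lay just above the 3 control libraries. Over all 58 genes the sum was 232 ± 16.8 CPM after PDTLN1 and 235 ± 10.4 CPM in controls. In bulk RNA, a lower level in all cells and fewer cells that use a gene cannot be told apart.

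**Figure D1:**
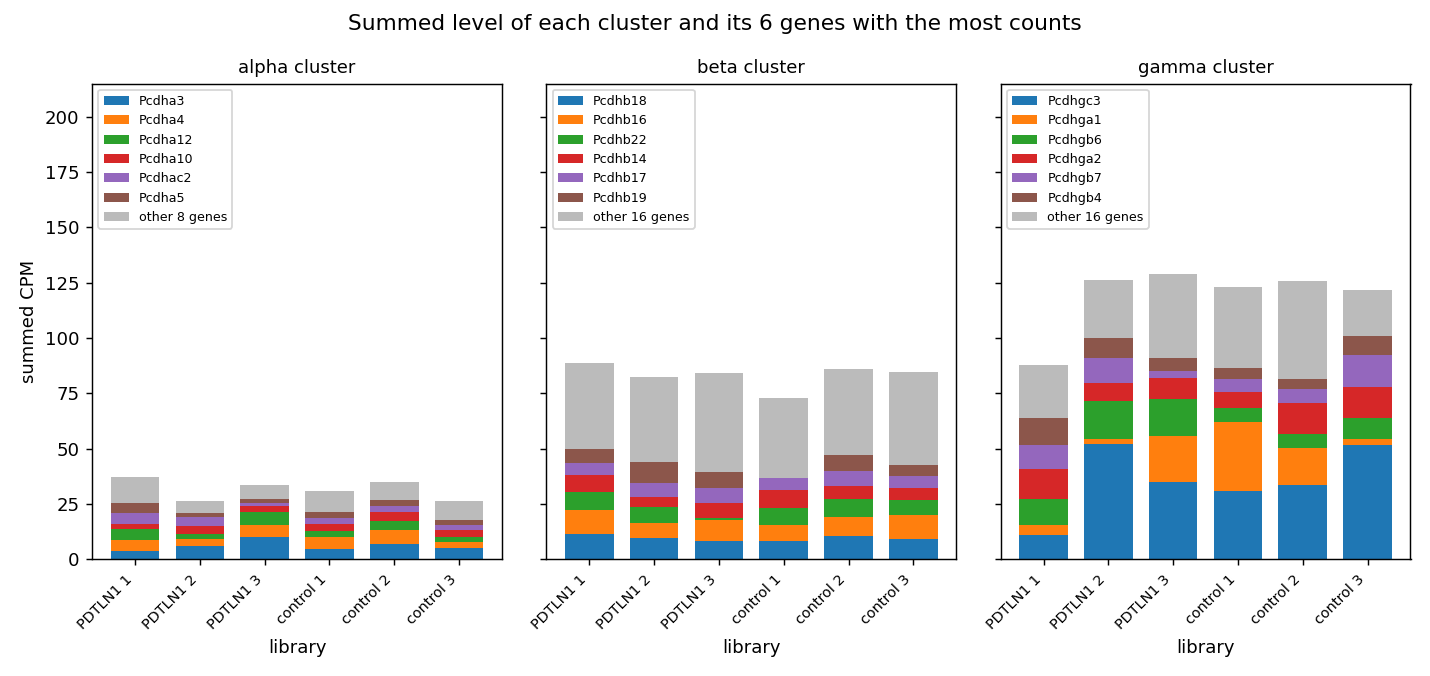
Summed level of each protocadherin cluster in the 3 PDTLN1 libraries and the 3 control libraries, in CPM on linear axes that start at 0. Coloured parts are the 6 genes with the most counts in each cluster and grey is the rest; the group sums overlap in all 3 clusters, while Pcdhgc3 fills 11.2 CPM of the gamma bar of PDTLN1 library 1 and 52.2 CPM of that of PDTLN1 library 2.

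Within a cluster, levels differed widely between genes. For this comparison CPM was divided by the merged exon length in kilobases, because the gene lengths behind the deposited FPKM exceed the merged exons by over 1% for 21 of the 58 genes. For 49 of the 58 that length equals, within 0.1%, the sum of all the gene's annotated transcripts, which lowers the FPKM of genes with several transcripts. At least 10 counts in every library were found for 35 of the 58 genes, and 8 genes stayed under 10 counts in every library.

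In the alpha cluster, Pcdha3 had the highest mean level over the 6 libraries, at 1.15 CPM per kb. It was at 0.744, 1.14 and 1.92 CPM per kb in PDTLN1 libraries 1, 2 and 3, against 0.846, 1.27 and 0.958 CPM per kb in control libraries. Pcdha4, next in order at 0.811 CPM per kb, lay above it in PDTLN1 library 1 and control library 1, so the neighbours did not separate beyond their spread. Pcdha3 and Pcdha4 are ordinary alpha isoforms, each with its own variable exon for the extracellular domains. Pcdha12 averaged 4.42 ± 2.02 CPM in PDTLN1 libraries and 3.02 ± 0.985 CPM in control libraries. Pcdha10 averaged 2.84 ± 0.880 CPM in PDTLN1 libraries and 3.57 ± 0.326 CPM in control libraries. The lowest alpha gene per kb was Pcdha11, with 6, 3 and 8 counts in PDTLN1 libraries and 2, 3 and 3 counts in control libraries.

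In the beta cluster the leading genes had close levels. Pcdhb18 led with a mean of 1.90 CPM per kb, Pcdhb2 followed with 1.89 and Pcdhb16 with 1.73 CPM per kb. Pcdhb18 had 118, 109 and 98 counts in PDTLN1 libraries, against 87, 111 and 105 counts in control libraries, and its fold change was 0.05 ± 0.17 (log2, SE). Pcdhb2 had 56, 61 and 50 counts in PDTLN1 libraries, against 50, 63 and 69 counts in control libraries. Pcdhb16 had 114, 82 and 110 counts in PDTLN1 libraries, against 75, 95 and 117 counts in control libraries. The groups overlapped for all 3 genes, and the SD of each over the libraries (0.236, 0.2504 and 0.312 CPM per kb) exceeds the gaps between their means. Pcdhb1 had 1, 1 and 0 counts in PDTLN1 libraries and 5, 0 and 0 counts in control libraries, and Pcdhb13 had at most 5 counts in any library.

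In the gamma cluster, Pcdhgc3, a C-type gene at the cluster's downstream end, had the highest mean level of all 58 genes, at 6.503 CPM per kb. Pcdhgb6, Pcdhga1 and Pcdhga2 followed at 2.43, 2.41 and 2.37 CPM per kb. Pcdhga2 had 142, 93 and 115 counts in PDTLN1 libraries, against 72, 152 and 155 counts in control libraries. Pcdhgb4 had 123, 101 and 67 counts in PDTLN1 libraries, against 54, 51 and 97 counts in control libraries. Pcdhga3 had 36, 58 and 38 counts in PDTLN1 libraries, against 16, 63 and 30 counts in control libraries. The groups overlapped for each. Pcdhga7, with 1 to 8 counts, had the lowest gamma level per kb.

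**Figure D2:**
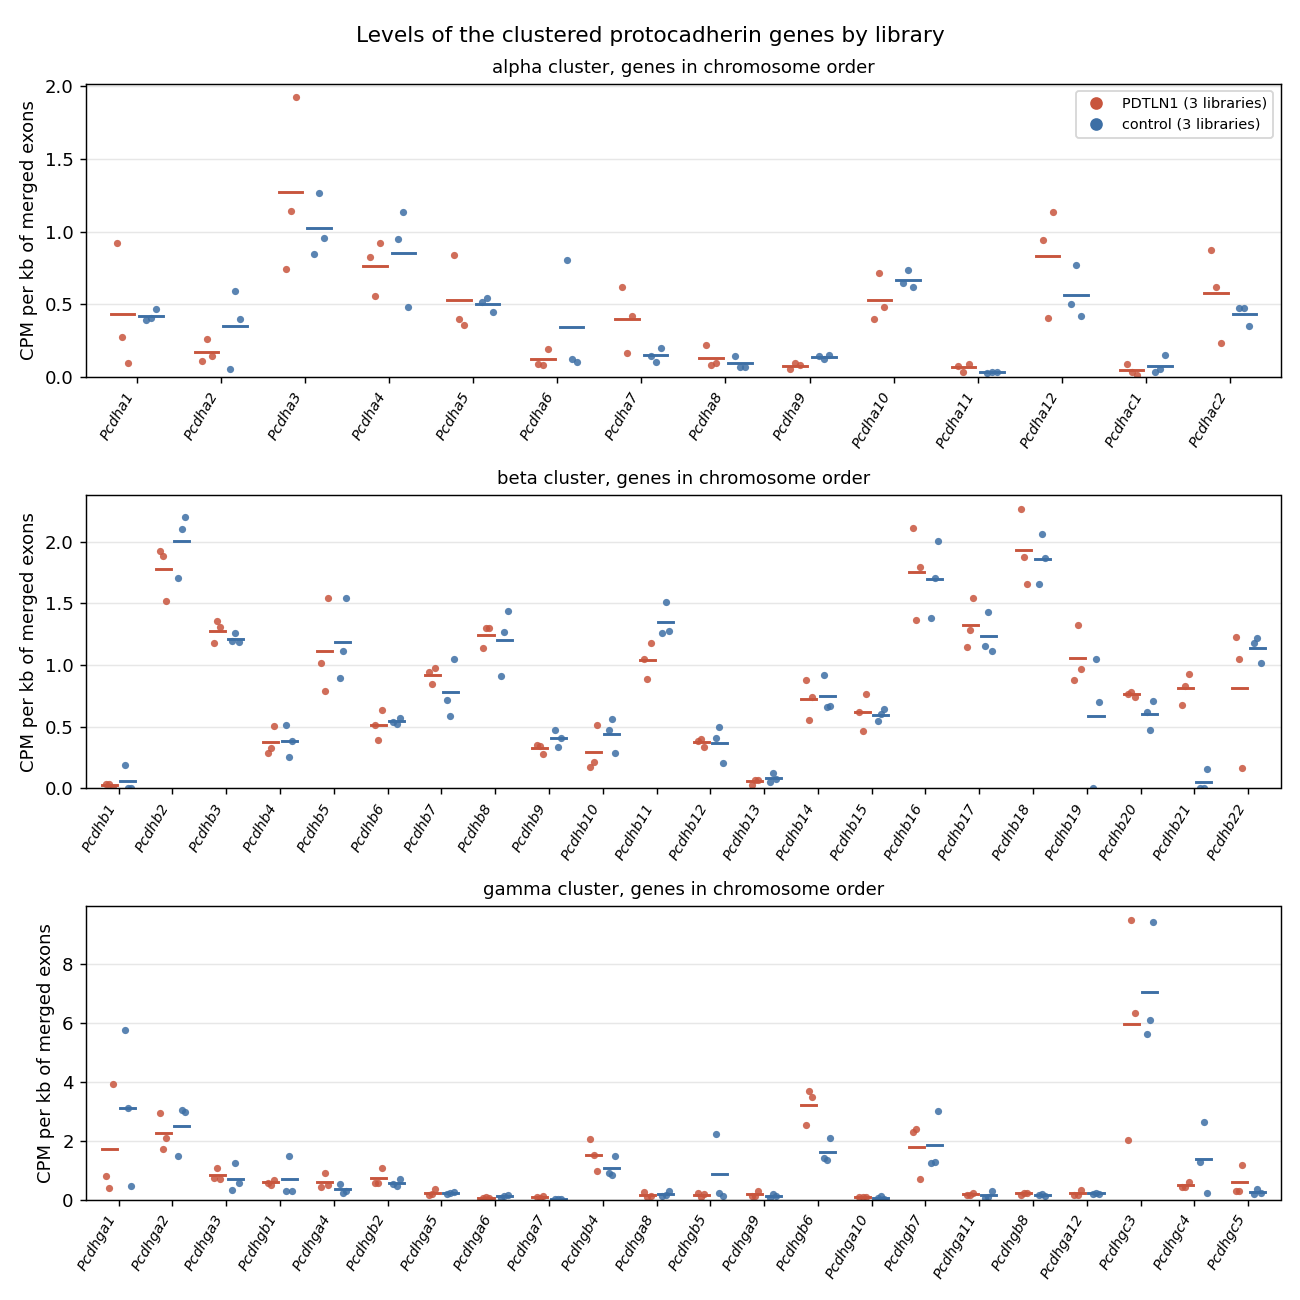
Level of each of the 58 genes in each library, in CPM per kb of merged exon on linear axes that differ between clusters, with a point per library, a line at each group mean and the genes in chromosome order. Pcdhgc3 reaches 9.497 CPM per kb in PDTLN1 library 2, and Pcdhb18 reaches 2.27 CPM per kb in PDTLN1 library 1.

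No clustered protocadherin passed the edgeR test for PDTLN1 against control. edgeR's quasi-likelihood test, adjusted over the 13836 genes that had enough counts, called 3 genes in the whole table (0.0217% of those tested), which were Dcbld2, Ipmk and Ppp1cb. Of the 58 genes, 45 were tested (9 alpha, 20 beta and 16 gamma), and 0 of them passed. The 13 left out by the filter on low counts were Pcdha6, Pcdha8, Pcdha9, Pcdha11, Pcdhac1, Pcdhb1, Pcdhb13, Pcdhga6, Pcdhga7, Pcdhga8, Pcdhga9, Pcdhga10 and Pcdhga11. At an unadjusted p under 0.05 there were 3 of 45, against 3.99% of all tested genes. These were Pcdhb21, Pcdhgb6 and Pcdha7, each higher after PDTLN1, against 2.3% of all tested genes, and 0 were lower, against 1.69%. Pcdhb21 passed the filter on low counts through its PDTLN1 libraries alone, so a higher level after PDTLN1 was a condition of its being tested. DESeq2 gave an adjusted p for 33 of the 45 and called 1 of those 33, Pcdhgb6, against 0.112% of all genes with a DESeq2 adjusted p.

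Fold changes stood on both sides of 0. There were 25 genes above 0 and 20 below 0, and 49.7% of all tested genes were above 0. The median log2 fold change was 0.05 for the 45 tested genes, against a median of -0.00087 for all tested genes, and by cluster it was 0.07 in alpha, 0.03 in beta and 0.09 in gamma. The median SE of the log2 fold change was 0.37 for the 45 genes and 0.13 for all tested genes. The groups did not overlap for 4 of the 45 genes, of which 3 (Pcdhb20, Pcdhb21 and Pcdhgb6) lay above the controls and Pcdhb11 lay below. That is 8.89%, against 9.79% of all tested genes, of which 4.81% lay above and 4.98% below. Pcdhb21 is counted here although it was tested through its PDTLN1 libraries alone. The labels do not say whether each library is its own culture. The p-values therefore reflect how far these libraries scatter, and that scatter may be technical.

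**Figure D3:**
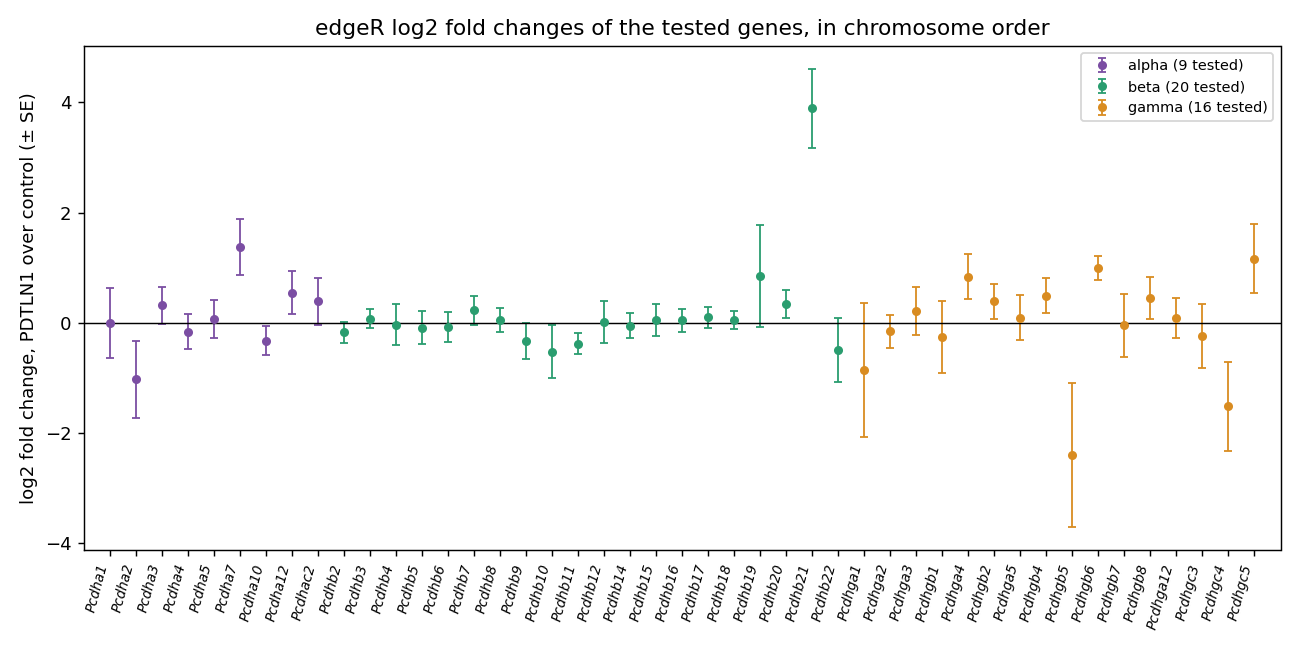
Log2 fold change of PDTLN1 over control for the 45 tested clustered protocadherins, with bars of 1 SE, grouped by cluster. The fitted values run from -2.40 for Pcdhgb5 to 3.89 for Pcdhb21, and no gene passed the threshold on the edgeR adjusted p.

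Pcdhgb6 (ENSMUSG00000103088), a gamma B isoform, had the second smallest p-value of the clustered genes, after Pcdhb21. It had 122, 199 and 191 counts in PDTLN1 libraries 1, 2 and 3, against 69, 68 and 109 counts in control libraries 1, 2 and 3. Every PDTLN1 library lay above every control library. The means were 15.1 ± 2.93 CPM after PDTLN1 and 7.59 ± 1.89 CPM in controls (SD, n = 3 each), and the log2 fold change was 0.99 (SE 0.21). The edgeR adjusted p was 0.945, and the DESeq2 adjusted p was 0.0460. Over the alternatives tried, the log2 fold change lay between 0.88 and 1.22 and the adjusted p of edgeR or DESeq2 between 0.0460 and 1.00. The log2 fold changes of the 6 other tested gamma B genes lay on both sides of 0, at -2.40 for Pcdhgb5, -0.25 for Pcdhgb1, -0.05 for Pcdhgb7, 0.39 for Pcdhgb2, 0.45 for Pcdhgb8 and 0.49 for Pcdhgb4. Without control library 2, Pcdhgb1 was at 0.97 (SE 0.29, edgeR adjusted p 1.00), and without control library 3, Pcdhgb7 was at 0.51. The gamma B genes summed to 41.4 ± 4.20 CPM after PDTLN1 and 35.8 ± 4.72 CPM in controls.

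Pcdhb21 (ENSMUSG00000044022), a beta gene with its own promoter, had 33, 45 and 51 counts in PDTLN1 libraries, against 0, 0 and 8 counts in control libraries. It passed the filter on low counts through the PDTLN1 libraries alone. A count of 0 allows up to 0.288 CPM in control library 1 and 0.281 CPM in control library 2. The fitted log2 fold change of 3.89 (SE 0.72) rests on the 8 control counts, so neither it nor its SE is well defined. The edgeR adjusted p was 0.702. Without control library 3 the adjusted p was 0.0334 with edgeR, and DESeq2 gave no adjusted p for it. Pcdhb22, which overlaps its end by 455 bases, had 84, 80 and 13 counts in PDTLN1 libraries, against 81, 86 and 75 counts in control libraries. Its level was thus low in PDTLN1 library 3 alone, the library in which Pcdhb21 was highest in counts. Pcdhb21 and Pcdhb22 together came to 11.3, 10.9 and 5.47 CPM in PDTLN1 libraries, against 7.77, 8.06 and 7.44 CPM in control libraries, so the groups overlap in the sum.

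Pcdha7 had 34, 10 and 26 counts in PDTLN1 libraries, against 8, 6 and 12 counts in control libraries. PDTLN1 library 2 lay below control library 3 in CPM, so the groups overlapped, and the log2 fold change was 1.38 (SE 0.51, edgeR adjusted p 0.989). Pcdhb11 had 48, 45 and 61 counts in PDTLN1 libraries, against 58, 71 and 63 counts in control libraries. Its groups did not overlap in CPM, and its log2 fold change was -0.38 (SE 0.19, edgeR adjusted p 0.989). Pcdhb20 had 28, 32 and 31 counts in PDTLN1 libraries, against 23, 18 and 28 counts in control libraries, with a log2 fold change of 0.34 (SE 0.25, edgeR adjusted p 0.989). Neither beta gene had an unadjusted p under 0.05. Among genes too low to test, Pcdha9 had 3, 6 and 5 counts in PDTLN1 libraries and 8, 7 and 9 in control libraries. Pcdhga7 had 4, 4 and 8 counts in PDTLN1 libraries and 1, 2 and 2 in control libraries. Those groups did not overlap either, at counts near the floor of 3.

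Other tested genes also had fold changes within the error of the fit or overlapping groups. Apart from Pcdhb21 and Pcdhb19, the beta genes had log2 fold changes between -0.53 (Pcdhb10) and 0.34 (Pcdhb20). In alpha, Pcdha5 was at 0.07 (SE 0.34), Pcdha3 at 0.32 (SE 0.33) and Pcdha12 at 0.55 (SE 0.39) on the log2 scale. In the gamma A class, Pcdhga4 had 21, 50 and 27 counts in PDTLN1 libraries, against 26, 11 and 15 counts in control libraries. Its groups overlapped, and its log2 fold change was 0.84 (SE 0.41, edgeR adjusted p 0.989). Pcdhga5 and Pcdhga12 were at 0.10 (SE 0.41) and 0.09 (SE 0.37) on the same scale. The signs of many of these small values were not stable: 23 of the 45 tested genes changed sign on leaving out 1 library, among them Pcdha5 (-0.39 to 0.29), Pcdhga5 (-0.35 to 0.34), Pcdhga12 (-0.34 to 0.26) and Pcdhgb1 (-0.62 to 0.97).

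**Figure D4:**
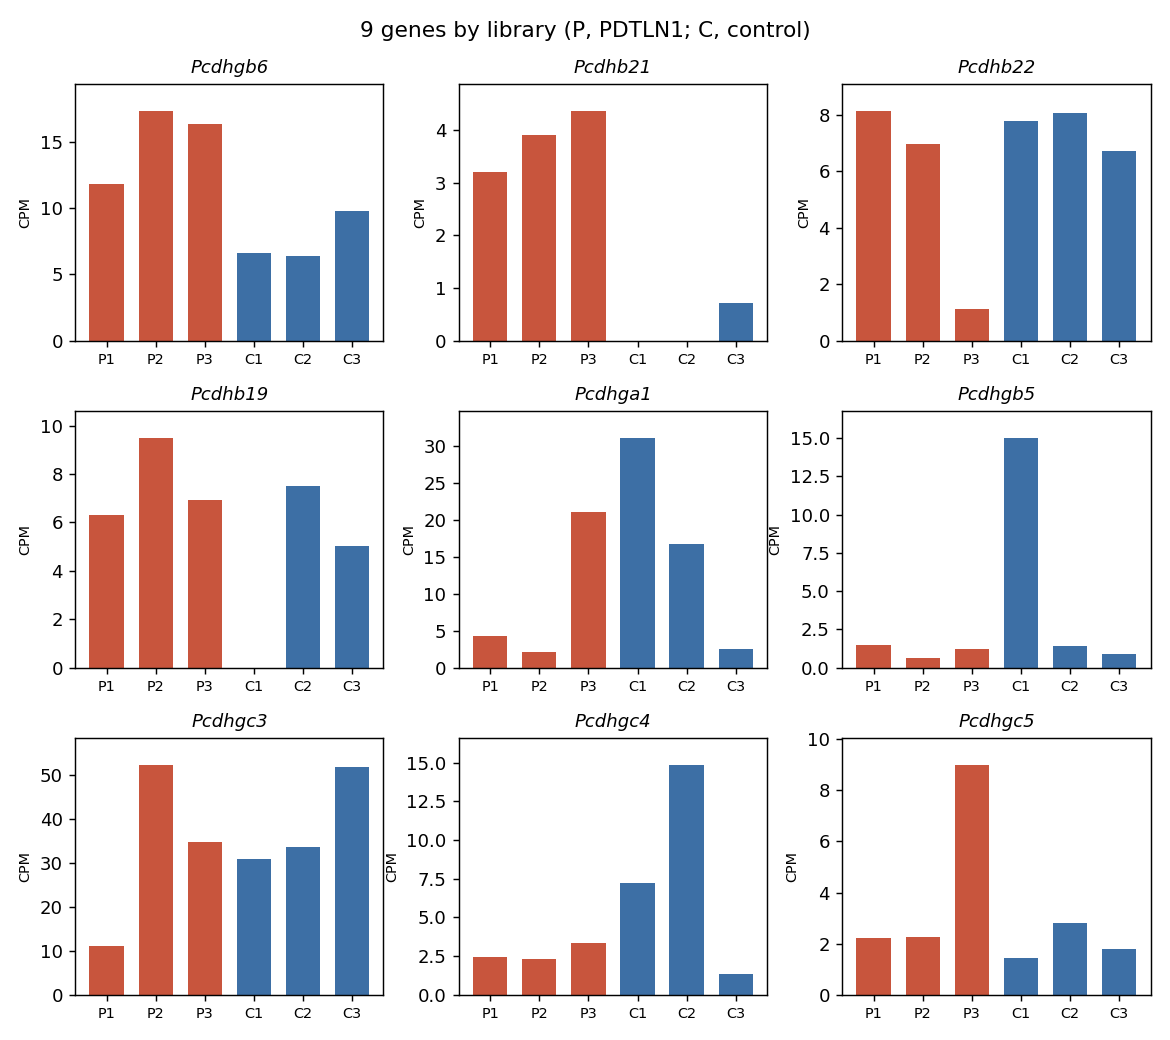
Level in CPM of 9 clustered protocadherins, 1 bar per library on a linear axis from 0 that differs between genes, with PDTLN1 libraries in red and control libraries in blue. For Pcdhgb6 the PDTLN1 bars (11.8, 17.3 and 16.3 CPM) all exceed the control bars (6.62, 6.38 and 9.77 CPM), and for Pcdhga1 high and low bars occur in both groups.

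Single isoforms were high in some libraries and low in others of the same group. Pcdhga1, the first gene of the gamma cluster, had 44, 24 and 247 counts in PDTLN1 libraries 1, 2 and 3, against 323, 178 and 28 counts in control libraries 1, 2 and 3. PDTLN1 library 3 and control libraries 1 and 2 were high and the other 3 libraries were low, a 14.9-fold range in CPM. Its log2 fold change was -0.85 (SE 1.21), and -0.05 (SE 1.43) without control library 1. Pcdhgb5 had 15, 7 and 14 counts in PDTLN1 libraries, against 156, 15 and 10 counts in control libraries. Control library 1 alone stood high, the range was 24.6-fold, and the log2 fold change was -2.40 (SE 1.31) with all libraries and -0.09 (SE 0.48) without control library 1. Pcdhgb7 had 112, 131 and 38 counts in PDTLN1 libraries, against 61, 64 and 159 counts in control libraries, and Pcdhgb1 had 34, 33 and 46 counts in PDTLN1 libraries, against 18, 92 and 19 counts in control libraries.

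The C-type genes also varied between libraries of a group. Pcdhgc3 had 116, 601 and 408 counts in PDTLN1 libraries, against 322, 358 and 578 counts in control libraries. It was low in PDTLN1 library 1 and highest in PDTLN1 library 2, and its log2 fold change was -0.24 (SE 0.57), and 0.17 (SE 0.29) without PDTLN1 library 1. Pcdhgc4 (ENSMUSG00000023036) had 25, 27 and 39 counts in PDTLN1 libraries, against 75, 158 and 15 counts in control libraries, with a log2 fold change of -1.52 (SE 0.80), and -0.64 (SE 0.63) without control library 2. Pcdhgc5 had 23, 26 and 105 counts in PDTLN1 libraries, against 15, 30 and 20 counts in control libraries, with a log2 fold change of 1.16 (SE 0.63), and 0.15 (SE 0.36) without PDTLN1 library 3. The groups overlapped for all 3. In the alpha cluster, Pcdhac2 had 53, 42 and 16 counts in PDTLN1 libraries, against 29, 30 and 23 counts in control libraries, and Pcdhac1 had 9 counts at most. The 5 C-type genes summed to 43.6 ± 20.1 CPM after PDTLN1 and 51.5 ± 8.01 CPM in controls, with PDTLN1 library 1 the lowest at 21.5 CPM.

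Which gamma gene led a library therefore differed. Per kb, Pcdhga2 was first in PDTLN1 library 1, Pcdhgc3 in PDTLN1 libraries 2 and 3, Pcdhga1 in control library 1 and Pcdhgc3 in control libraries 2 and 3. Pcdhgc3 held 601 of the 1451 gamma counts in PDTLN1 library 2 and 116 of 906 in PDTLN1 library 1. The gamma A genes summed to 32.8 ± 10.7 CPM after PDTLN1 and 39.2 ± 10.2 CPM in controls.

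Among the alpha genes, Pcdha6 had 5, 5 and 12 counts in PDTLN1 libraries, against 45, 7 and 6 counts in control libraries. Pcdha1 had 51, 17 and 6 counts in PDTLN1 libraries, against 22, 23 and 28 counts in control libraries. Pcdha2 had 6, 16 and 9 counts in PDTLN1 libraries, against 3, 34 and 24 counts in control libraries. Each of the 3 had its extremes in different libraries: Pcdha6 was high in control library 1, Pcdha1 in PDTLN1 library 1 and Pcdha2 in control library 2. One beta gene, Pcdhb19, had 65, 109 and 81 counts in PDTLN1 libraries, against 0, 80 and 56 counts in control libraries, and the single control library without a count (up to 0.288 CPM) lowered its control mean. The log2 fold change was 0.85 (SE 0.93), and 0.28 (SE 0.26) without control library 1.

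The ratio of the highest to the lowest of all 6 libraries was taken for genes with at least 10 counts in some library. By this ratio, 4 of 11 alpha genes and 10 of 19 gamma genes exceeded 4-fold. In the beta cluster 1 of 20 did, and 2 more had a library at 0. The median ratio was 3.24 in alpha, 1.66 in beta and 4.21 in gamma. Such ratios are uncertain at low counts (3 in the lowest library for Pcdha2 and for Pcdhga11), and their share over all genes was not taken. The spread within the groups was then set beside that of other genes at the same level, as a description. The median SD of log2 CPM within the groups was 0.609 for the 9 tested alpha genes, 0.267 for the 20 beta genes and 0.630 for the 16 gamma genes. Above the 90th percentile of all tested genes at their level lay 7 of 9 alpha genes, 3 of 20 beta genes and 10 of 16 gamma genes, 20 of 45 in all (44.4%, against 10.1% of all tested genes). The 3 beta genes include the overlapping Pcdhb21 and Pcdhb22. Shared exons lie in the alpha and gamma clusters, and their part in this spread was not tested.

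**Figure D5:**
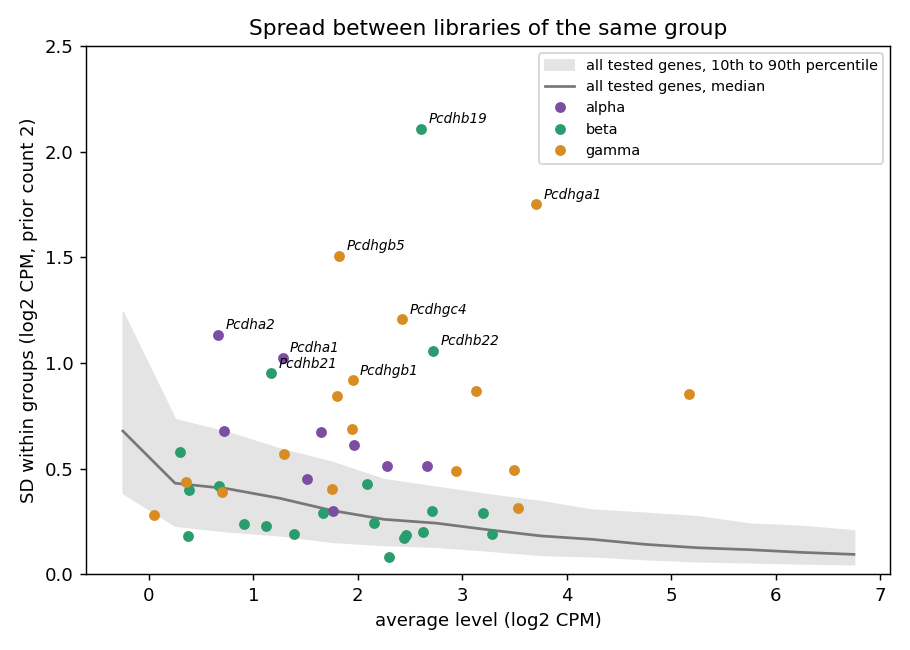
SD of log2 CPM within the groups against the mean log2 CPM for the 45 tested clustered protocadherins, coloured by cluster, over the median and the 10th to 90th percentiles of all tested genes at each level. Most alpha and gamma points (7 of 9 and 10 of 16) lie above the grey band, and 3 of 20 beta points do.

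Genes beside the clusters were read as a check on the region. Taf7, a TFIID subunit gene between the beta and gamma clusters, averaged 105 ± 9.03 CPM in PDTLN1 libraries and 107 ± 1.91 CPM in control libraries. Diap1, a formin gene beside the gamma cluster, averaged 107 ± 1.16 CPM in PDTLN1 libraries and 108 ± 5.52 CPM in control libraries. Hdac3 had a log2 fold change of -0.02 (SE 0.10). Of the 10 tested genes in this list, 0 passed in edgeR or DESeq2 and 0 had an unadjusted p under 0.05, with 5 above 0 and 5 below 0. Of all tested genes, 0.0217% passed in edgeR and 3.99% had an unadjusted p under 0.05. In DESeq2 0.112% of the genes with an adjusted p passed. A count of 0 among 10 genes is near these shares and says little about the region. Hars2 had the smallest p among the 10 genes (log2 fold change 0.22, SE 0.10), followed by Fchsd1 (-0.20, SE 0.15).

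The machinery that selects and silences these promoters showed no called change. Of 15 tested genes for CTCF and cohesin, 0 passed in edgeR or DESeq2 and 1 had an unadjusted p under 0.05 (3.99% of all tested genes did), with 9 above 0 and 6 below (49.7% of all tested genes lay above 0). That gene was Nipbl, the cohesin loader, at 247 ± 17.7 CPM after PDTLN1 and 220.3 ± 7.30 CPM in controls (log2 fold change 0.17, SE 0.06). Ctcf, the insulator protein that binds the promoters and the enhancers, had a log2 fold change of -0.10 (SE 0.05) and the cohesin subunit gene Rad21 one of 0.03 (SE 0.05). Of 18 genes for DNA methylation and silencing, 0 passed in either tool and 0 had an unadjusted p under 0.05, with 9 above 0 and 9 below. Over the whole comparison, edgeR called 0.0217% of tested genes and DESeq2 0.112% of those with an adjusted p. Counts of 0 among 15 and 18 genes are near these shares and say little about this machinery. Groups did not overlap for 3 of the 15, Ctcf and Nipbl among them. They did not overlap for 1 of the 18, Dnmt3b, against 9.79% of all tested genes. Dnmt3b, the de novo DNA methyltransferase known to act on these promoters in mouse, averaged 318 ± 24.5 CPM in PDTLN1 libraries and 353 ± 14.3 CPM in control libraries (log2 fold change -0.15, SE 0.07). Smchd1, a silencing factor of the clusters in mouse, had a log2 fold change of 0.02 (SE 0.06), and the H3K9 methyltransferase gene Ehmt2 one of -0.13 (SE 0.08).

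Downstream of the proteins, 19 tested genes of the kinases and the WAVE actin complex that bind or follow their cytoplasmic tails had 0 calls in edgeR or DESeq2 and 0 at an unadjusted p under 0.05. Of these, 9 lay above 0 and 10 below, with Prkca, a protein kinase C, at 0.29 (SE 0.13) and Wasf1, a WAVE subunit, at -0.16 (SE 0.09) on the log2 scale. The 8 secretase genes, whose products cut protocadherins at the membrane, also had 0 calls in either tool and 0 at an unadjusted p under 0.05. Their smallest p-values belonged to Aph1a (log2 fold change -0.16, SE 0.11) and Psenen (0.38, SE 0.27), both gamma-secretase subunits. Of all tested genes, 0.0217% were called in edgeR and 3.99% had an unadjusted p under 0.05. In DESeq2 0.112% of the genes with an adjusted p were called. Counts of 0 in lists of 19 and 8 genes are near these shares.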

How the data were processed

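The deposited table gives, per the file headers, a count and an FPKM value per gene and library. The authors deposited raw counts as whole numbers, and their deposited FPKM (count over gene length and library total) is the same reading rescaled. Bowtie 0.12.2, mm8 and mm9 are named, with no role, per the submitters' processing notes. The positions of the 58 genes are those of GRCm38, which is neither mm8 nor mm9. Of 34267 gene identifiers found in GENCODE M21, 27699 (80.8%) had the same position, so M21 need not be the annotation used. For the counter, its strand setting and the annotation, nothing was given in the sources used here.

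Counts were tested with R 4.3.3 and edgeR 4.0.16, using TMM, a filterByExpr filter by group, robust glmQLFit and glmQLFTest, two-sided, Benjamini-Hochberg adjustment over all genes tested, threshold 0.05. The steps were tested on simulated data. Groups follow the labelled treatment, with 3 libraries in each group. Depth limits low genes: 3 counts are 0.256 to 0.290 CPM, covering counting error only. SDs of log2 CPM used a prior count of 2.

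The genes and lists were chosen with earlier results of these data known. Named are, in each of 5 classes (alpha 1 to 12, beta, gamma A, gamma B, C-type), the 3 tested genes with the smallest p and the 3 with the highest FPKM, all C-type genes, Pcdhb21, Pcdhgb6, the 2 smallest p of each list and a few fixed genes. Genes named for low counts, spread or position, and genes not tested, were chosen after their values were seen. Alternatives were a block on the replicate number, each library left out in turn, DESeq2 1.42.0, its size factors, library size alone, no filter and a stricter filter (1 CPM in 3 libraries). Leaving out both libraries numbered 1 was added after seeing the data.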

Additional observations from a re-analysis of the deposited data

How the results depend on the processing

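In the whole comparison 3 genes passed with edgeR. With the replicate number as a block 1 passed, with the DESeq2 Wald test 14, with no filter 8, and with both libraries numbered 1 left out 91. Leaving out single libraries gave 2 to 13, with 13 without control library 1. DESeq2 size factors, library size alone and the stricter filter each gave 3. Same-numbered libraries did not deviate together (correlations of -0.36, -0.14 and -0.10), so no pairing by number was seen. These correlations run over all tested genes and could miss a smaller shared effect. The block left the count of clustered protocadherins at 0. That count was 1 with DESeq2 (Pcdhgb6), 0 to 1 on leaving out single libraries (1 without control library 3, Pcdhb21) and 0 under every other alternative, the 2 against 2 comparison included. The cause was not tested. Of the 533 values of 41 named genes under the alternatives, 510 kept their direction and side of the threshold, and 21 values of 10 genes with no call changed direction. The log2 fold changes of these 10 on leaving out single libraries were -0.11 to 0.58 for Pcdha3, -0.026 to 0.78 for Pcdhac2, -0.10 to 0.20 for Pcdhb16, -0.075 to 0.15 for Pcdhb18, -2.40 to -0.05 for Pcdhga1, -0.42 to 0.013 for Pcdhga2, -0.13 to 0.89 for Pcdhga3, -0.33 to 0.51 for Pcdhgb7, -0.74 to 0.17 for Pcdhgc3 and -0.021 to 0.062 for Smchd1. With both libraries numbered 1 left out they were -0.15 for Pcdhb18, -0.23 for Pcdhb16, 0.28 for Pcdhga1, -0.051 for Pcdhga3 and 0.025 for Pcdhgc3. Of all 45 tested clustered protocadherins, 23 changed sign on leaving out single libraries. The log2 ratio of the summed level lay between -0.03 and 0.20 for alpha, -0.00 and 0.11 for beta and -0.21 and 0.05 for gamma, so each changed sign in some alternative. Low counts limit the 13 untested genes, and shared exons limit the alpha and gamma counts.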

Other observations

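Protocadherins outside the clusters and other large cadherins were set beside the clustered genes. Of 12 non-clustered protocadherin genes 9 were tested, and 0 passed in edgeR or DESeq2. That is near the shares that passed over all genes (0.0217% in edgeR and 0.112% in DESeq2). An unadjusted p under 0.05 was found for 4, against 3.99% of all tested genes, with Pcdh19, Pcdh10 and Pcdh1 above 0 and Pcdh8 below. Pcdh1 and Pcdh8 are named after their values were seen. Pcdh19, which binds like partners across cells, averaged 7.91 ± 1.54 CPM in PDTLN1 libraries and 4.88 ± 0.547 CPM in control libraries, with no overlap between the groups (log2 fold change 0.70, SE 0.20, edgeR adjusted p 0.989). Pcdh10 averaged 3.11 ± 0.553 CPM in PDTLN1 libraries and 2.05 ± 0.214 CPM in control libraries, also with no overlap (0.60, SE 0.25). Groups did not overlap for 4 of the 9 tested genes, each higher after PDTLN1. Over all tested genes 9.79% did not overlap, and 4.81% lay above the controls.

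Of the other large cadherins 8 were tested, with 7 above 0 and 1 below 0 (49.7% of all tested genes lay above 0) and 0 calls in edgeR or DESeq2. A count of 0 among 8 genes is near the shares called over all genes (0.0217% in edgeR and 0.112% in DESeq2). An unadjusted p under 0.05 was found for 3, Fat1, Fat4 and Celsr1, the last named after its value was seen, against 3.99% of all tested genes. Fat1, a giant atypical cadherin, averaged 776 ± 90.1 CPM in PDTLN1 libraries and 671 ± 26.9 CPM in control libraries (log2 fold change 0.21, SE 0.08). Fat4, the receptor of the Dachsous cadherins, averaged 18.9 ± 3.17 CPM in PDTLN1 libraries and 14.7 ± 1.27 CPM in control libraries (0.36, SE 0.15).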
